A study of Mus musculus with 8 samples.

Results

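Neuronal pentraxins and a set of small plasticity proteins of excitatory synapses are described here across SNI and sham mice. The 6 members, Nptx1, Nptx2, Nptxr, Nrn1, Nrgn and Itpka, were named by their gene symbols in a table of 14765 genes, and all 6 had enough reads to enter the test with 13911 genes. They were chosen from results of the same SNI against sham comparison, so their differences between the groups are given as a description, and no test of them counts as evidence. The gene lists used below were also chosen with earlier results of these data known, so their counts of calls are a description too. Polyadenylated RNA was sequenced from PrL tissue in bulk. PrL is read here as prelimbic area, a part of mouse medial prefrontal cortex. There were 4 SNI libraries and 4 sham libraries, all labelled as C57 mice. SNI stands in pain research for spared nerve injury, a lesion of branches of the sciatic nerve that leaves lasting hypersensitivity, and sham animals serve as its control. Neither age, sex nor time after surgery is given in the sources used here, nor whether a library is 1 animal. Where p-values are given, they reflect variation among the 8 libraries only, and some of it may be technical. The question is how the level of each member differs between injured and control mice.

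Neuronal pentraxins are proteins that neurons release or carry on their surface and that gather AMPA-type glutamate receptors at excitatory synapses, above all on parvalbumin interneurons. Nptx1 and Nptx2 (also known as Narp) are secreted, and Nptx2 is induced by neuronal activity. Nptxr has a membrane anchor from which it can be cut by the sheddase encoded by Adam17. Nrn1 encodes neuritin, an activity-induced protein held on the cell surface by a GPI anchor, which supports the growth and stability of dendrites and synapses. Neurogranin, the product of Nrgn, binds calmodulin in dendritic spines and sets how much of it is free to act on calcium signals. Itpka encodes a kinase that phosphorylates inositol trisphosphate and also bundles actin in spines.

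Library totals ran from 14735602 to 19602487 counts. Levels are given as CPM, counts scaled to a common library size, with TMM scaling to correct for differences in library composition. Markers of cortical neurons were abundant: Slc17a7, the vesicular glutamate transporter of cortical excitatory neurons, averaged 1487 ± 299 CPM in SNI and 1843 ± 94.4 CPM in sham (SD, n = 4 libraries each). Striatal markers were also present, at a summed level of 391 to 933 CPM in SNI libraries and 259 to 518 CPM in sham libraries over the 13 tested. In edgeR's quasi-likelihood test over all genes, with Benjamini-Hochberg adjustment at 0.05, 5.02% of tested genes were called. Of tested genes 2.15% were called higher in SNI (299 genes) and 2.87% lower (399 genes). Scaling by library totals alone turned that split to 446 higher and 276 lower.

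Of the 6 members 5 were called lower in SNI, beside 2.87% of all tested genes, and Nptx1 was not called. Nothing is read from that count, since the same comparison chose the members. In each of the 5 called members the 4 SNI values lay below the 4 sham values, a separation that 7.02% of tested genes showed in that direction. Bulk RNA cannot tell fewer cells of a type from less RNA per cell, which holds for every value below.

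**Figure D1:**
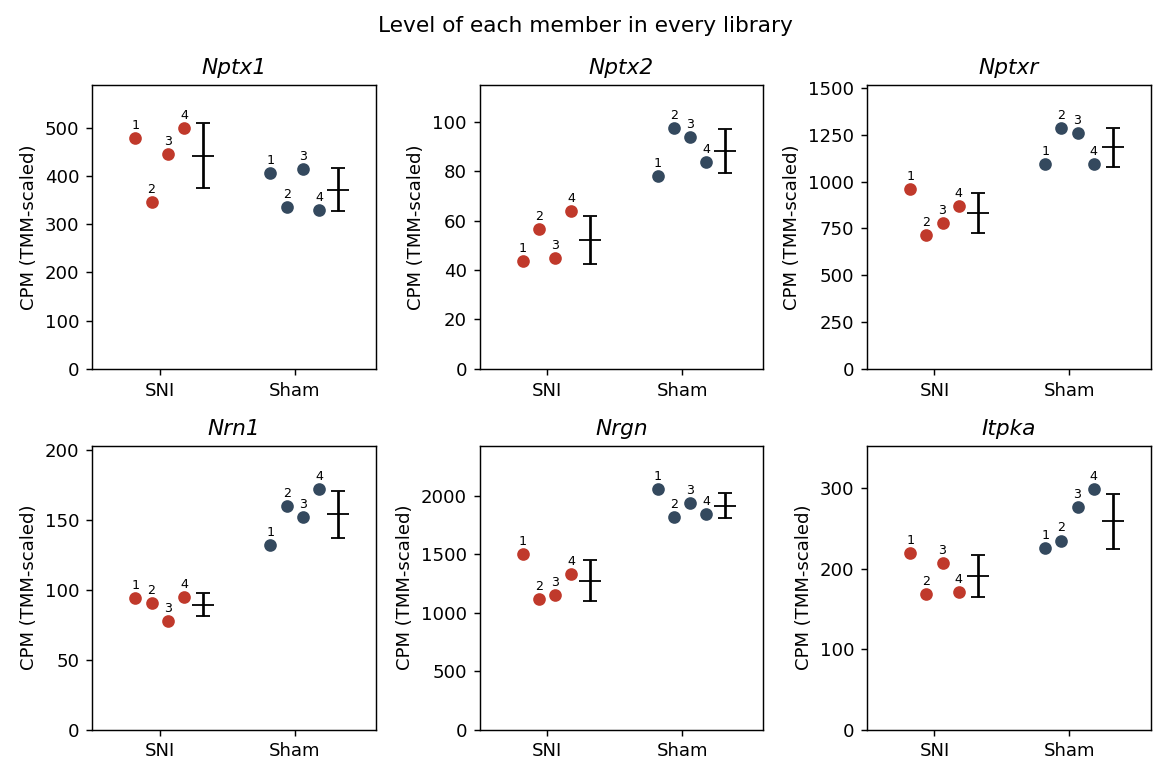
TMM-scaled CPM of each member (vertical axis, from 0) in the 4 SNI libraries (red, left) and the 4 sham libraries (dark, right), with replicate numbers above the points and mean ± SD beside them. SNI points lie below all sham points in 5 panels, and in the Nptx1 panel the groups overlap, with SNI replicate 2 (346 CPM) among the sham values.

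Nptx2, the activity-induced pentraxin, had the lowest level of the 6 and one of the largest differences. Its levels were 43.7, 56.6, 44.7 and 63.8 CPM in SNI replicates 1 to 4, against 78.1, 97.4, 94.0 and 83.9 CPM in sham replicates 1 to 4. The highest SNI library, replicate 4, stayed under the lowest sham library, replicate 1. The means were 52.2 ± 9.73 CPM in SNI and 88.3 ± 8.91 CPM in sham (SD, n = 4 libraries each), and the fitted log2 fold change was -0.76 ± 0.118 (SE), which puts SNI at 59.1% of sham. These values rest on 671 to 1143 reads per SNI library and 1151 to 1487 reads per sham library. In GRCm38 the gene spans chromosome 5 from 144545902 to 144557478 on the plus strand.

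Nptxr, the membrane-anchored pentraxin, was also lower and was far more abundant. It stood at 960, 715, 781 and 869 CPM in SNI replicates 1 to 4, against 1095, 1285, 1259.8 and 1094 CPM in sham replicates 1 to 4. SNI replicate 1 came closest to the sham libraries, and SNI replicate 2 lay farthest below them. The log2 fold change was -0.51 ± 0.099 (SE), with means of 831 ± 106 CPM in SNI and 1183 ± 103 CPM in sham (SD, n = 4 libraries each). Nptxr lies on the minus strand of chromosome 15 from 79786351 to 79804766. The annotated gene Npcd shares exons with it on the same strand and has no row in the table, so reads of Npcd transcripts that were counted under Nptxr cannot be told apart.

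Nptx1 was the member whose mean was higher in SNI, and it did not pass the test. Its levels were 479, 346, 445 and 499 CPM in SNI replicates 1 to 4, against 406, 336, 414 and 330 CPM in sham replicates 1 to 4. SNI replicates 1, 3 and 4 lay above every sham library, while replicate 2 lay among the sham values. The means were 442 ± 67.8 CPM in SNI and 372 ± 44.9 CPM in sham (SD, n = 4 libraries each), and the log2 fold change was 0.25 with a 95% interval of 0.01 to 0.49. Without SNI replicate 2 the log2 fold change was 0.35 and Nptx1 was called higher. The gene lies on chromosome 11 from 119538719 to 119547753 on the minus strand.

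**Figure D2:**
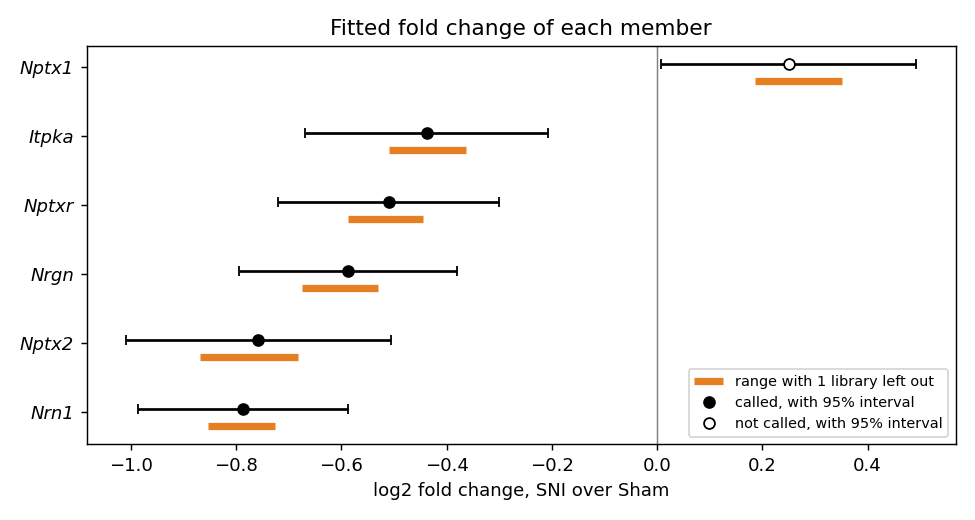
Fitted log2 fold change of each member, SNI over sham (horizontal axis), with its 95% interval in black and, in orange, the range of the estimate when 1 library at a time was left out. The filled points from -0.79 (Nrn1) to -0.44 (Itpka) were called lower in SNI, and the open point (Nptx1, 0.25) was not called.

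Per length, the mix of pentraxin transcripts differed between the groups. The summed level of the 3 pentraxins was 266 ± 31.7 CPM per kb of exon in SNI and 335 ± 24.8 CPM per kb in sham (SD, n = 4 libraries each). Of this sum, Nptx1 made up 31.1, 29.2, 33.6 and 33.1% in SNI replicates 1 to 4, against 24.3, 18.3, 22.1 and 20.5% in sham replicates 1 to 4. Nptxr made up 58.2 to 63.0% in SNI and 66.1 to 70.7% in sham. The groups did not overlap in either of these shares, but they did in that of Nptx2, which was 5.84 to 9.83% in SNI and 9.61 to 10.9% in sham. The Nptx1 to Nptx2 ratio per length was 4.23 ± 1.06 in SNI and 2.07 ± 0.364 in sham (SD, n = 4 libraries each), with every SNI value above every sham value. Nptxr to Nptx2 was 8.06 ± 2.09 in SNI and 6.58 ± 0.211 in sham, with overlapping groups (SD, n = 4 libraries each). These ratios come from the same comparison that chose the genes and were not tested.

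**Figure D3:**
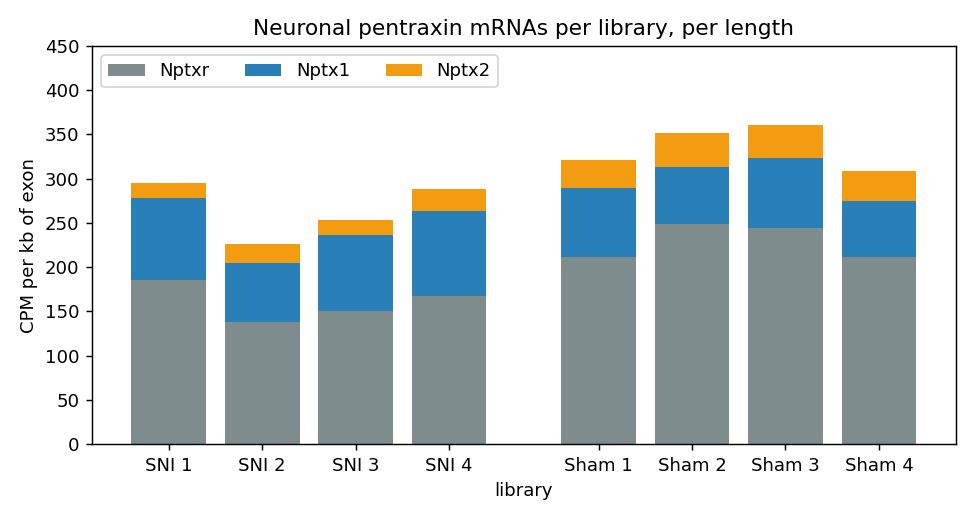
Stacked levels of Nptxr (grey), Nptx1 (blue) and Nptx2 (orange) in CPM per kb of merged exons (vertical axis, from 0) in each library, SNI at left and sham at right. The Nptx1 segment takes 29.2 to 33.6% of the bar in SNI and 18.3 to 24.3% in sham.

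Nrn1, the gene of neuritin, had the largest fitted difference of the 6. It stood at 94.2, 90.7, 77.6 and 95.0 CPM in SNI replicates 1 to 4, against 132, 160, 152 and 172 CPM in sham replicates 1 to 4. The SNI libraries were close to each other apart from the lower replicate 3, and the gap to the nearest sham library was wide. The means were 89.4 ± 8.07 CPM in SNI and 154 ± 16.7 CPM in sham (SD, n = 4 libraries each), and the log2 fold change was -0.79 ± 0.094 (SE), or 57.9% of sham. Nrn1 was called in all 22 alternatives tried, with log2 fold changes of -0.85 to -0.70. The gene lies on the minus strand of chromosome 13 from 36725361 to 36735131, where an exon of Fars2, on the opposite strand, overlaps it. The library chemistry keeps strand, but the sources do not say whether counting was by strand, so reads of this overlap are uncertain. Fars2 itself averaged 17.1 ± 1.14 CPM in SNI and 16.8 ± 1.86 CPM in sham (SD, n = 4 libraries each).

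Nrgn, the gene of neurogranin, was the most abundant member, ranked 31 of all tested genes by mean CPM. It had 1498, 1117, 1153 and 1328 CPM in SNI replicates 1 to 4, against 2056, 1820.2, 1939.9 and 1842 CPM in sham replicates 1 to 4. Even the highest SNI library, replicate 1, stayed well under the lowest sham library. The log2 fold change was -0.59 ± 0.098 (SE), with means of 1274 ± 175 CPM in SNI and 1914 ± 108 CPM in sham (SD, n = 4 libraries each). It too was called in all 22 alternatives, with log2 fold changes of -0.68 to -0.44. The gene spans chromosome 9 from 37544492 to 37552904 on the minus strand.

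Itpka had the smallest difference of the called members. It stood at 219, 168, 207 and 171 CPM in SNI replicates 1 to 4, against 226, 235, 277 and 299 CPM in sham replicates 1 to 4. SNI replicate 1 lay just under the lowest sham library, and the sham libraries themselves spread widely. The means were 191 ± 25.7 CPM in SNI and 259 ± 34.3 CPM in sham (SD, n = 4 libraries each), with a log2 fold change of -0.44 ± 0.109 (SE). Its call ended without sham replicate 3 or 4, or SNI replicate 2, 3 or 4, with log2 fold changes of -0.51 to -0.36 over single omissions. The gene spans chromosome 2 from 119742337 to 119751263 on the plus strand.

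The promoters of Nrgn and Itpka, members that were lower together, are shown from RefSeq (GRCm38.p6) as 250 bases before to 50 bases after the start, each read along its own strand. The Nrgn window is chr9:37552696-37552995 (minus strand) and the Itpka window is chr2:119742087-119742386 (plus strand). The RefSeq start used for Nrgn lies inside the gene span given above, downstream of its 5' end at 37552904. For Itpka the start is the first base of its span. Motif positions count from the RefSeq start. Windows for Nptx1, Nptx2, Nptxr and Nrn1 were not used here. Capitals mark every match, on either strand, to the motifs searched.
Nrgn: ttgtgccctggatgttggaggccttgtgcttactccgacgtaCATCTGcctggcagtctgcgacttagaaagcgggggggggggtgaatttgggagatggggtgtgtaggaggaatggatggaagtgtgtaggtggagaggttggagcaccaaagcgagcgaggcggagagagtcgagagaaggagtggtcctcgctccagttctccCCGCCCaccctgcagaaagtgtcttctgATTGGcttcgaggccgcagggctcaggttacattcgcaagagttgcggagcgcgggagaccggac
Itpka: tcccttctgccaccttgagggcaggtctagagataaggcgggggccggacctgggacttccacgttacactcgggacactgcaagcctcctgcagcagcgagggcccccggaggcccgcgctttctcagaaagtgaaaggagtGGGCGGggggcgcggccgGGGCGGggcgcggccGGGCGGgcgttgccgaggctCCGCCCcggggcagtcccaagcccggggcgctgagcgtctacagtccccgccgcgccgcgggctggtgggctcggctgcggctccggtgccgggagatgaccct
The motifs were the GC box GGGCGG, the CCAAT box CCAAT, the CRE core TGACG and the full CRE TGACGTCA that contains it, the EGR site GCGNGGGCG, TATAAA, and the E-boxes CAGATG and CACGTG. The EGR site can overlap a GC box. Nrgn held 1 GC box, 1 CCAAT box on the opposite strand at -15 from the start, and 1 CAGATG, also on the opposite strand, at -208. Itpka held 4 GC boxes and no other motif of the set, in a window with a GC content of 73.7%, against 59.3% for Nrgn and a median of 52.7% over 32851 windows. Of all windows 35.7% held a GC box, 37.4% a CCAAT box, 20.8% the CRE core, 17.2% CAGATG, 13.6% TATAAA, 7.15% CACGTG, 5.55% the EGR site and 1.79% the full CRE. Matches are letters in these windows only, and their use was not tested.

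Per kb of exon, the levels of the members spread over a wide range. In SNI the order was Nrgn (877 ± 121 CPM per kb), Nptxr (161 ± 20.6), Itpka (105 ± 14.1), Nptx1 (84.7 ± 13.0), Nrn1 (39.7 ± 3.59) and Nptx2 (20.6 ± 3.84). In sham it was Nrgn (1318 ± 74.0 CPM per kb), Nptxr (229 ± 20), Itpka (143 ± 18.8), Nptx1 (71.2 ± 8.61), Nrn1 (68.6 ± 7.44) and Nptx2 (34.8 ± 3.52), all as SD over 4 libraries. Neighbours in these orders overlapped in their libraries in these cases: Itpka and Nptx1 in SNI and Nptx1 and Nrn1 in sham. With the length of the longest annotated transcript in place of merged exons, Nrn1 stood at 50.2 CPM per kb in SNI and 86.7 CPM per kb in sham, which in sham put it above Nptx1.

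The SNI libraries differed among themselves in a way that Nrgn and Nptxr shared with excitatory neuron markers. Nrgn and Nptxr were highest in SNI replicate 1, followed by replicate 4, and lowest in replicates 2 and 3. The mean log2 deviation over 13 excitatory neuron markers ran the same way, at 0.035, -0.223, -0.233 and -0.039 in SNI replicates 1 to 4, against 0.134, 0.061, 0.187 and 0.077 in sham replicates 1 to 4. Within sham the likeness did not hold for Nptxr, which was highest in sham replicate 2, where the marker mean was lowest. Nrgn was lowest there. Of the 13 excitatory neuron markers 3 fell, or 23.1% beside 2.87% of all tested genes called lower. They were Emx1 (log2 fold change -0.53), Mef2c (-0.40) and Cck (-0.43). The summed level of all 13 was 6144 to 7690.2 CPM in SNI and 7731 to 8663 CPM in sham. Relative to that marker mean in the same library, SNI minus sham was -0.55 for Nrn1, -0.54 for Nptx2, -0.37 for Nrgn, -0.28 for Nptxr, -0.21 for Itpka and 0.47 for Nptx1 on the log2 scale. On this relative scale the groups overlapped for Itpka and lay apart for the other members, Nptx1 included. No share over all genes was taken on this scale, and the same comparison chose the members, so nothing is read from that. Nptx2 went its own way, with SNI replicates 4 and 2 above replicates 3 and 1.

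Among the other marker lists, mean log2 deviations lay apart between the groups for upper-layer markers and for choroid plexus and ependymal markers. They overlapped in the rest. Counts of calls in all these lists stand beside 2.87% of all tested genes called lower and 2.15% called higher. Upper-layer markers had values of -0.251 to -0.130 in SNI and 0.026 to 0.257 in sham, 3 of 13 were called lower (Lamp5, Mdga1 and Cux2), and their summed level was 881 to 953 CPM in SNI and 1029 to 1275 CPM in sham. Striatal markers had values of -0.210, 1.144, 0.169 and 1.113 in SNI replicates 1 to 4, and of -1.095 to 0.167 in sham, with 1 of 13 called, Ido1, which rose. Choroid plexus and ependymal markers had values of 0.410 to 0.696 in SNI and -0.763 to -0.131 in sham, 2 of 5 rose (Ttr and Clic6), and the summed level overlapped at 174 to 220 CPM in SNI and 172 to 249 CPM in sham. Most of that sum was Enpp2, at 186 ± 17.6 CPM in SNI and 198 ± 31.1 CPM in sham (SD, n = 4 libraries each), so the overlap says little of the other markers. Ttr averaged 1.5 ± 0.995 CPM in SNI and 0.261 ± 0.205 CPM in sham (SD, n = 4 libraries each). Deep-layer markers overlapped between the groups, and 2 of 16 rose (Hs3st4 and Ntsr1). Of the 10 microglial markers Tmem119 and P2ry12 rose, while Cx3cr1, the fractalkine receptor, fell (log2 fold change -4.74). Cx3cr1 stood at 1.93 ± 0.317 CPM in SNI and 51.2 ± 4.47 CPM in sham (SD, n = 4 libraries each), although all 8 libraries carry the same genotype label. Any difference between the groups other than surgery was not tested and could not be told apart from SNI in this design. Gpr17 fell among 6 markers of oligodendrocyte precursors, and 0 of 16 inhibitory neuron, 10 astrocyte, 9 oligodendrocyte and 7 endothelial markers were called by edgeR. The part of cell composition in the members' differences was not tested. Without SNI replicates 2 and 3, which had the lowest excitatory marker values, Nrn1 (-0.70) and Nrgn (-0.44) were called, and Nptx2 (-0.72), Nptxr (-0.37) and Itpka (-0.41) were not. Without SNI replicates 2 and 4, which had the highest striatal values, Nptx2 (-1.0), Nrn1 (-0.84) and Nrgn (-0.53) were called, and Nptxr (-0.44) and Itpka (-0.28) were not. With 2 libraries fewer, calls over all genes also fell from 698, to 178 in the first omission and 438 in the second. Whether marker content had a part in the lost calls was not tested.

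**Figure D4:**
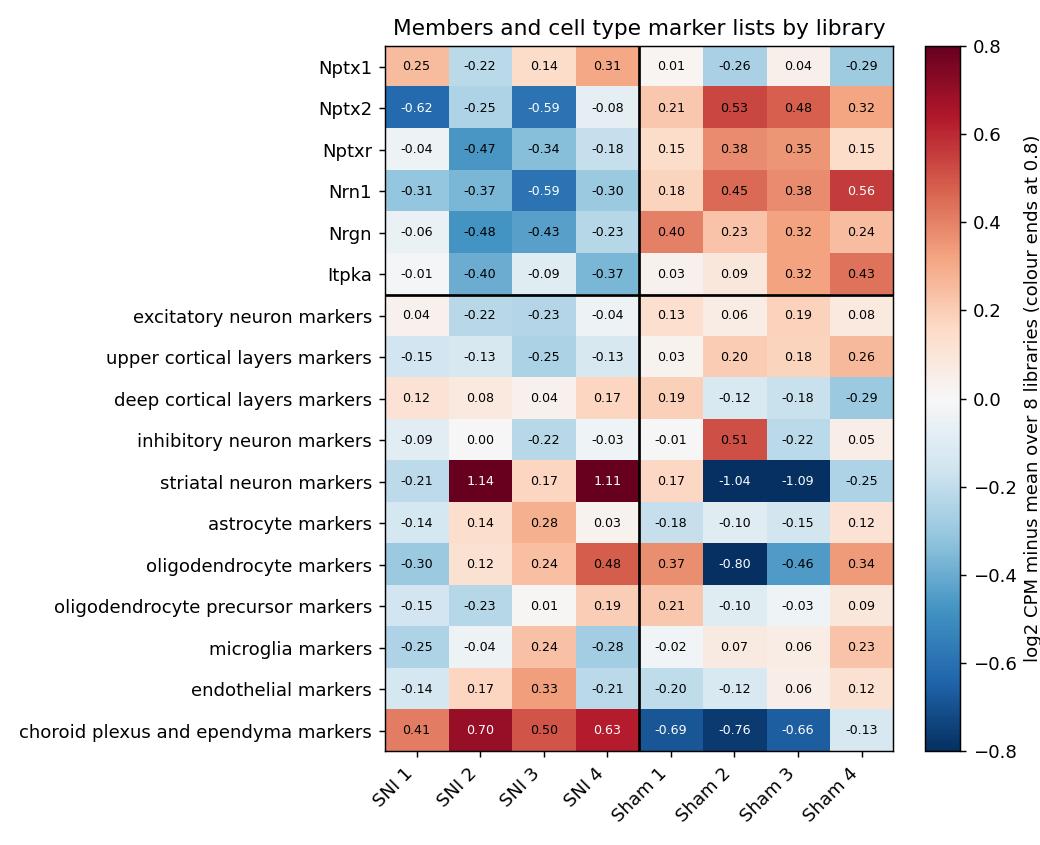
Log2 CPM minus the mean over 8 libraries for each member (upper block) and the mean of the same deviations over each marker list (lower block), by library, SNI left of the black line and sham right of it. Colour ends at 0.8 in either direction, and the striatal values of SNI replicates 2 and 4 (1.144 and 1.113) lie beyond it.

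Transcript composition was looked at because it can move counts. GC content was 61.1% for Itpka, 59.6% for Nptxr, 58.6% for Nrgn, 58.3% for Nptx2, 54.9% for Nptx1 and 45.7% for Nrn1. Tested genes within 2 percentage points of each member had median log2 fold changes of -0.06 for Itpka, -0.05 for Nptxr, -0.03 for Nrgn and Nptx2, -0.01 for Nptx1 and 0.03 for Nrn1. With a GC trend removed from each library, an alternative added after seeing the data, the log2 fold changes were -0.37 for Itpka, -0.46 for Nptxr, -0.54 for Nrgn, -0.70 for Nptx2, 0.27 for Nptx1 and -0.81 for Nrn1, and the same 5 members were called. Itpka only just passed the threshold of 0.05 in that fit, and Nptx2 came nearer to the threshold than before.

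The genes that work with the members were followed through 5 lists with 125 distinct genes tested outside the members. These lists were chosen with earlier results of these data known, so their counts and adjusted p are a description only. Of 13 tested pentraxin partners 2 fell, beside 5.02% of all tested genes called, with a median log2 fold change of -0.17 against 0.01 over all genes. Both were auxiliary subunits of AMPA receptors: Cacng3, at 88.8 ± 10.5 CPM in SNI and 136 ± 4.55 CPM in sham (edgeR adjusted p = 0.00145, log2 fold change -0.61), and Cacng2, at 61.0 ± 2.83 CPM in SNI and 73.6 ± 4.02 CPM in sham (-0.27, edgeR adjusted p = 0.0484, SD, n = 4 libraries each). The receptor subunits that pentraxins bind, Gria1, Gria2, Gria3 and Gria4, had log2 fold changes of -0.13, -0.03, -0.17 and -0.30 and were not called. Adam17, the sheddase, had 17.0 ± 2.24 CPM in SNI and 16.4 ± 2.53 CPM in sham (SD, n = 4 libraries each). The complement genes C1qa, C1qb and C1qc, whose product neuronal pentraxins bind, had 0.44, 0.35 and 0.31 and were not called.

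Around neurogranin, edgeR called 1 of 20 calmodulin genes and calmodulin-binding proteins, or 5%, beside 5.02% of all tested genes (698 genes). DESeq2 called 5 of the 20, beside 1153 genes in all, and limma voom called 4, beside 821 genes in all. Camkk2, a kinase activated by calcium and calmodulin, fell to 207 ± 16.7 CPM in SNI, against 324 ± 52.1 CPM in sham (SD, n = 4 libraries each). Its log2 fold change was -0.64, with an edgeR adjusted p of 0.00401. Calm2 and Calm3, which encode calmodulin, had log2 fold changes of -0.14 and -0.32 and were not called by edgeR. Gap43, the presynaptic relative of neurogranin that shares its calmodulin-binding motif, had 394 ± 51.9 CPM in SNI and 379 ± 49.9 CPM in sham (SD, n = 4 libraries each). The list's median log2 fold change was -0.12.

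Around Itpka, 0 of 27 genes of inositol trisphosphate signalling were called by edgeR, beside 5.02% of all tested genes (698 genes). DESeq2 and limma voom also called 0, beside 1153 and 821 genes in all. An unadjusted edgeR p under 0.05 was found for 3 of the 27. In the other lists it was found for 7 of 13 pentraxin partners, 5 of 20 calmodulin genes and binding proteins, 14 of 30 GPI-anchored proteins and 18 of 37 activity-regulated genes. No share over all genes was taken for that count. In the inositol trisphosphate list the smallest p belonged to Plcb1, a phospholipase that makes inositol trisphosphate (-0.32, edgeR adjusted p = 0.0925). Next came Homer3, a scaffold at metabotropic glutamate receptors (0.54, edgeR adjusted p = 0.112). The other kinases of the Itpka family, Itpkb and Itpkc, had log2 fold changes of 0.04 and 0.21, and the receptor Itpr1 had 0.21. The list's median was 0.04.

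Of 30 other GPI-anchored neuronal proteins 5 fell and 1 rose, or 20% called beside 5.02% of all tested genes (2.87% lower and 2.15% higher). The list's median log2 fold change was -0.20. Ly6e (-0.41), Lynx1 (-0.38), a modulator of nicotinic receptors, Cntn3 (-0.34), a contactin, Ntm (-0.31), neurotrimin, and Rtn4rl1 (-0.28), a Nogo receptor relative, fell. Lypd1 rose to 54.5 ± 2.92 CPM in SNI, against 39.7 ± 6.75 CPM in sham (SD, n = 4 libraries each, log2 fold change 0.46). Their edgeR adjusted p ran from 0.0163 for Ly6e to 0.0493 for Cntn3.

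Of 37 activity-regulated genes outside the members 2 fell and 3 rose, or 13.5% called beside 5.02% of all tested genes (2.87% lower and 2.15% higher). The median log2 fold change was 0.09. Vgf, a secreted neuropeptide precursor, fell to 257 ± 48.0 CPM in SNI, against 423 ± 40.5 CPM in sham (SD, n = 4 libraries each, log2 fold change -0.72). Bdnf, the neurotrophin, fell to 27.6 ± 6.03 CPM in SNI, against 43.8 ± 4.66 CPM in sham (SD, n = 4 libraries each, -0.66). Sik1 (0.76), a kinase, Cyr61 (0.82), a matrix protein, and Gadd45b (0.39), a stress-response gene, rose. The list held genes on both sides, while the activity-induced members Nptx2 and Nrn1 were lower. The part of neuronal activity in this was not tested.

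Scaling by library totals alone left 1 pentraxin partner and 3 GPI-anchored proteins called, and 7 activity-regulated genes. Over all 5 lists, Bdnf, Cacng3, Camkk2, Cyr61, Sik1 and Vgf were called whichever library was left out. Gadd45b lost its call without each of the 8 libraries in turn, Cacng2, Ntm and Rtn4rl1 without 7 of them, Cntn3 without 6, Lynx1 without 5, Lypd1 without sham replicate 2 or SNI replicate 3, and Ly6e without sham replicate 3. With the GC trend removed, Rtn4rl1 was not called, and Cyr61 was not fitted, because its symbol matched no GC value.

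**Figure D5:**
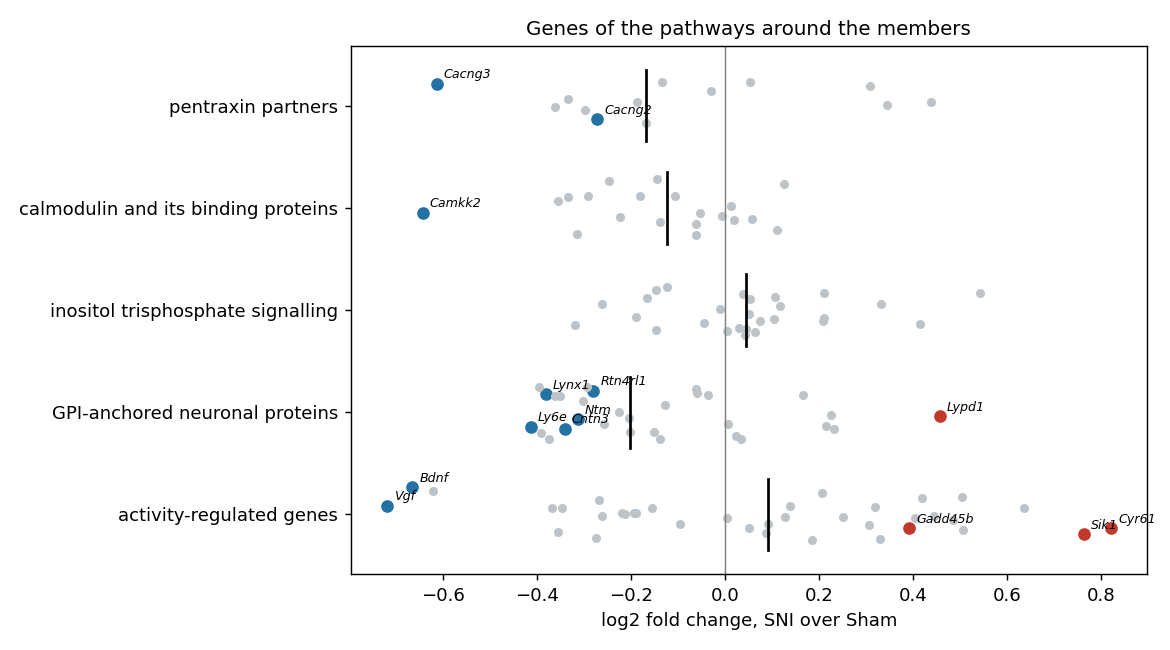
Log2 fold change, SNI over sham (horizontal axis), of each tested gene in the 5 lists around the members, with genes called higher in red, called lower in blue, the others in grey and the list median as a black bar. The medians run from -0.20 (GPI-anchored proteins) to 0.09 (activity-regulated genes), and the vertical position within a list carries no value.

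Within groups, the members did not follow 1 common pattern. After each group's mean was subtracted, Pearson's r between members over the 8 libraries was 0.75 for Nptx1 with Nrgn, 0.66 for Nptxr with Nrgn, 0.57 for Nptx1 with Nptxr, and -0.55 for Nptx2 with Itpka, with the other 11 pairs between -0.29 and 0.45. The genes most like each member by the same measure, among 9969 genes with a mean of at least 10 CPM, were as follows. For Nptx2 they were Ubxn2b (0.99), Homer1 (0.97), an activity-induced scaffold of the synapse, and Cog6 (0.96). For Nptxr they were Mocs3, Ap3b2 and Syn2 (0.98 each), Syn2 being a synapsin of synaptic vesicles. For Nrgn they were Mrpl38, Cspg5 and Prkaca (0.98 each), Prkaca being the catalytic subunit of protein kinase A. For Nptx1 they were Slc5a5, Rabggta and Dnajb12 (0.98, 0.98 and 0.97). For Nrn1 they were Exosc2, Thsd7a and Tmco3 (0.94 to 0.96), and for Itpka Tmem245, Tmem127 and Zkscan14 (0.95 to 0.97). The number of genes at 0.90 or above was 145 for Nrgn and 8 for Nrn1. The 8 libraries share depth and composition across genes, so these likenesses are a description only.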

How the data were processed

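Poly(A) RNA of PrL tissue from 4 SNI and 4 sham libraries was sequenced. The authors deposited whole-number read counts per gene symbol. Per the submitters' processing notes, fastp, HISAT2 and StringTie were used on GRCm38, without versions; the counting step, annotation and strand setting are not given in the sources used here. Each gene in the table has at least 1 count in every library.

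Counts were tested with edgeR 4.0.16 in R 4.3.3 (filterByExpr, TMM, robust two-sided quasi-likelihood test, Benjamini-Hochberg over 13911 genes, threshold 0.05). Standard errors were obtained as the absolute log2 fold change divided by the square root of F. The common biological coefficient of variation was 12.1%. Positions, lengths and GC content come from GENCODE M21 (GRCm38). For a list value, log2 CPM with a prior count of 2 was centred on each gene and averaged over the list. Named by rule were all members, every called gene of the lists, and the 3 genes most like each member. In the inositol trisphosphate list, where none was called, the 2 genes of smallest p were named. Other genes that were not called, among them AMPA receptor subunits, complement genes and calmodulin genes, were picked by hand outside this rule. Members, lists and tests were chosen with earlier results of these data known. Same-group libraries differed beyond sampling noise (chi-square per degree of freedom 7.39 to 28.4), and same-numbered libraries were not treated as pairs in the main fit. Alternatives included DESeq2 1.42.0 and limma 3.58.1 voom, other scalings and filters, a replicate block, and libraries left out. The members had 671 to 32119 counts per library.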

Additional observations from a re-analysis of the deposited data

Results flagged for a closer look

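Of 48 groups of 4 values checked, 2 held a library far from the others, and chance gives about 1 in 20. The mean log2 deviation of the inositol trisphosphate signalling list was -0.083 in sham replicate 1, against -0.006, 0.003 and 0.004 in sham replicates 2 to 4, a gap of 0.881 of the group's range. That of the choroid plexus and ependymal markers was -0.131 in sham replicate 4, against -0.685, -0.763 and -0.658 in sham replicates 1 to 3, a gap of 0.834 of the range. No member's CPM was set apart in this way in either group.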

How the results depend on the processing

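All 6 members kept their direction in the 22 alternatives, and Nrn1 and Nrgn kept their calls. The count of called members, 5, became 2 when SNI replicates 2 and 3 were left out and 3 when SNI replicates 2 and 4 were left out. With single libraries left out it was 4 to 5, and with the replicate block it was 5. Without SNI replicate 2 the 5 were not the same members: Itpka was not called (-0.38), Nptx1 was called higher (0.35), and 4 were called lower. The count over all genes, 698, became 1153 with DESeq2, 178 and 438 for the same omissions, 155 at a threshold of 0.01 and 1279 at 0.10, and lay between 258 (without sham replicate 3) and 858 (without SNI replicate 1) with 1 library left out. The count over the 5 gene lists, 14, became 26 with DESeq2, 22 with voom, 6 without SNI replicates 2 and 3, 25 with the GC offset, 5 at 0.01 and 27 at 0.10, and lay between 7 and 17 with 1 library left out. The cause of these shifts was not tested.

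The labels give replicate numbers and nothing on what libraries of the same number share. Whether they shared a batch or a day of surgery cannot be told from the labels. Same-numbered libraries had correlations of -0.148 to -0.0056 between their deviations from the group means, and the replicate block gave 518 calls over all genes. The block changed no member's call, and no SNI library was most like the sham library of its own number. In sham, Nrn1 per kb moved past Nptx1 with the longest transcript, at 86.7 CPM per kb, and in SNI it was 50.2. The member with the fewest reads, Nptx2, had at least 671 in each library.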
